A study of Mus musculus with 12 samples.

Results

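The genes described here encode enzymes and helper proteins that make or break down eicosanoids and platelet-activating factor. They were chosen by name, and the 10 members are Ptgs1, Ptgs2, Ptges, Tbxas1, Hpgds, Alox5, Alox5ap, Lta4h, Ltc4s and Pla2g7, of 54532 genes measured. RNA-seq was performed on 12 libraries of mouse bone marrow macrophages (BMMs) from wild-type C57BL/6J mice of 2 to 3 months. The cells were cultured for 24 h with 12 ng/ml CSF-1 and differentiated for 48 h with 120 ng/ml CSF-1, then passaged onto normal plates or plates coated overnight with fibronectin, the matrix protein that integrin α5β1 binds. They were then exposed for 24 h to 10 µg/ml IgG or to 10 µg/ml of a neutralizing antibody against ITGA5, the α5 chain. Each antibody was used on either surface, which gave 4 groups of 3 libraries. All 4 groups shared the genotype, CSF-1 and 15% fetal calf serum, and none lacked an added antibody. The study describes its replicates as biologically independent experiments. The labels do not say whether the 3 libraries of a group came from separate mice. The p-values thus measure the spread between these libraries, which may be technical in part.

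Eicosanoids are short-lived lipid mediators made from arachidonate that phospholipases release from membranes. Cyclooxygenases turn arachidonate into prostaglandin H2, from which terminal synthases make prostaglandin E2, prostaglandin D2 or thromboxane A2. In the other main branch, 5-lipoxygenase, helped by its activating protein in the nuclear membrane, makes leukotriene A4, which is hydrolysed to leukotriene B4 or joined to glutathione as leukotriene C4. Platelet-activating factor is a phospholipid mediator that is inactivated by a secreted acetylhydrolase. Macrophages can run all of these branches, and transcript levels do not show how much mediator was made.

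Library totals of reads on genes ranged from 12954342 to 22075432, and the members held 0.081% to 0.0928% of them. The shallowest library was anti-ITGA5 without fibronectin replicate 2, and that group varied most among its replicates (chi-square per gene between pairs of 11.4 to 25.6, against 2.79 to 8.13 in the other 3 groups). Itga5 itself was measured at 44.5 to 53.1 FPKM and was not called in any comparison, so its transcript does not check whether the antibody acted. FPKM is the number of fragments scaled to gene length and library size. Comparing it between members rests on their annotated lengths, from 1014 bases for Ltc4s to 9094 for Tbxas1. All 8 macrophage markers were detected, and their summed level, led by Lyz2, was 14580 to 15545 CPM (counts scaled to the library total) in IgG and 11324 to 12713 in anti-ITGA5 without fibronectin, and 14962 to 15029 and 12477 to 12691 with fibronectin. Of these markers Cd68, Itgam, Mertk and Lyz2 were called lower upon ITGA5 neutralization on both surfaces, and Mrc1 was called higher with fibronectin. Mast cells, which express Hpgds, Ltc4s and Alox5 strongly, left at most 4 counts in any library on any of 8 markers, and Fcer1a was at 0 in every library. Of the 8 neutrophil markers, Ly6g was at 0 in every library and the summed level was 1.63 to 3.86 CPM. Mpo, at 3 to 21 counts per library, was the 1 of 2 testable neutrophil markers called lower upon ITGA5 neutralization with fibronectin (log2 fold change -0.94, adjusted p = 0.0499), and without it 1 could be tested and was not called. Of 6 platelet markers 4 could be tested, of which 2 (Pf4 and Ppbp) were lower and 1 (Gp1ba) higher upon ITGA5 neutralization on both surfaces. Their summed level, led by Pf4, was 376 to 461 CPM in IgG and 280 to 366 in anti-ITGA5 without fibronectin, and 391 to 496 and 360 to 375 with fibronectin. In counts per library, Ppbp had 32 to 156, Itga2b 11 to 26, Gp1ba 2 to 16 and Gp9 0 to 8. The part of the shifts in the macrophage, neutrophil and platelet lists in the results below was not tested.

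The levels of the members spanned from Alox5ap at 99.3 to 155 FPKM to Ptgs2 at 0.119 to 0.481 FPKM over the 12 libraries. In IgG without fibronectin the order was Alox5ap (mean 135 FPKM), Hpgds (38.5), Tbxas1 (29.0), Ptgs1 (19.2), Pla2g7 (14.9), Lta4h (12.1), Ltc4s (7.08), Alox5 (1.10), Ptges (0.910) and Ptgs2 (0.428). Neighbours in this order whose libraries overlapped were Ptgs1 and Pla2g7, Pla2g7 and Lta4h, and Alox5 and Ptges, and the other neighbouring pairs did not overlap. Alox5ap alone took 52.3% ± 1.92 (SD, n = 3) of the summed FPKM of the 10 genes there. The helper of 5-lipoxygenase was thus far more abundant as a transcript than Alox5 itself, by 76.9 to 157 times in FPKM in every library. Ptgs1, the cyclooxygenase that most cells express at rest, exceeded the inducible Ptgs2 by 34.7 to 169 times. The order by FPKM depends on gene length. In mean counts of IgG without fibronectin, Tbxas1 (4613) and Hpgds (4335) stood above Alox5ap (3362).

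**Figure D1:**
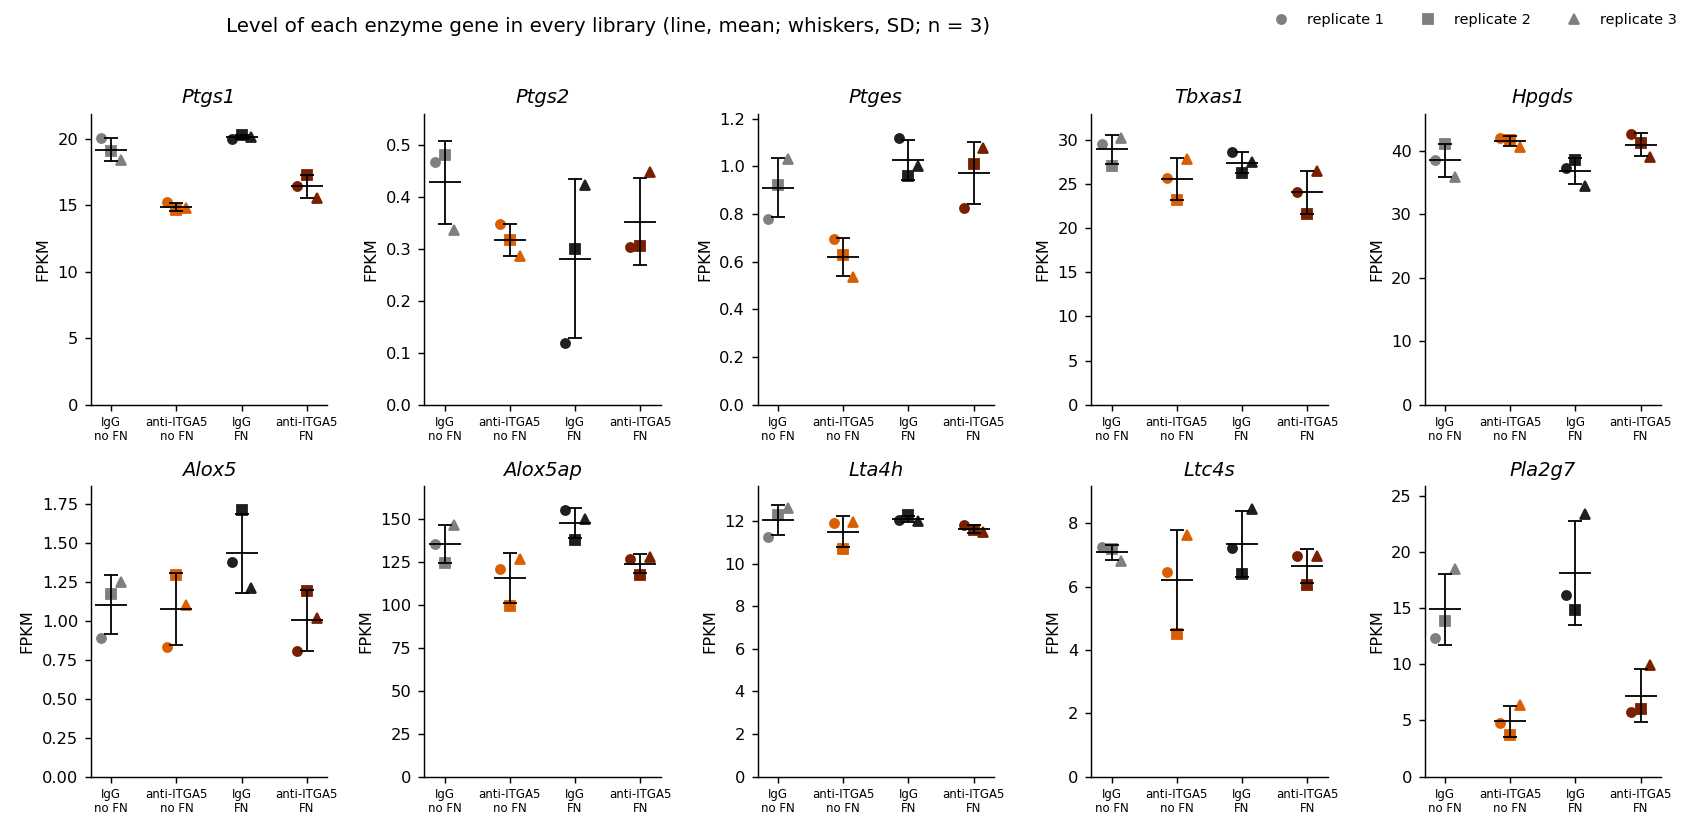
FPKM of each of the 10 genes (vertical axes, starting at 0) in the 12 libraries, by antibody and coating (FN, fibronectin). Symbols mark the replicates, lines the means and whiskers the SD (n = 3), and the 3 anti-ITGA5 libraries of Ptgs1 and Pla2g7 lie under the 3 IgG libraries on both surfaces.

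The first question was whether neutralizing ITGA5 changed these transcripts. Without fibronectin 2 of the 10 members fell, Ptgs1 and Pla2g7, against 9.79% of the 12924 genes tested, and none rose, against 11%. With fibronectin 5 fell (Ptgs1, Tbxas1, Alox5, Alox5ap and Pla2g7), against 13.2% of 12916 genes, and 1 rose (Hpgds), against 14.4%. The threshold for a call was an adjusted p-value of 0.05. Ptgs1 and Pla2g7 were called lower on both surfaces, as were 7.23% of the 12681 genes tested on both. None was called higher on both, against 9.14%. Called or not, 8 of the 10 members had a log2 fold change below 0 on both surfaces, as did 39.5% of all genes. Hpgds was above 0 on both, and Ptgs2 was below 0 without and above 0 with fibronectin. The median log2 fold change of the members was -0.20 without and -0.17 with fibronectin, against 0.0090 and -0.0038 over all genes tested. With libraries scaled by total counts in place of TMM, the genes called without fibronectin went from 1265 lower and 1419 higher to 940 and 1838, and those with fibronectin from 1699 and 1866 to 1264 and 2407. The median of all genes then moved by 0.04 on the log2 scale in both comparisons. In bulk RNA, fewer cells that express a gene and less RNA per cell cannot be told apart.

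**Figure D2:**
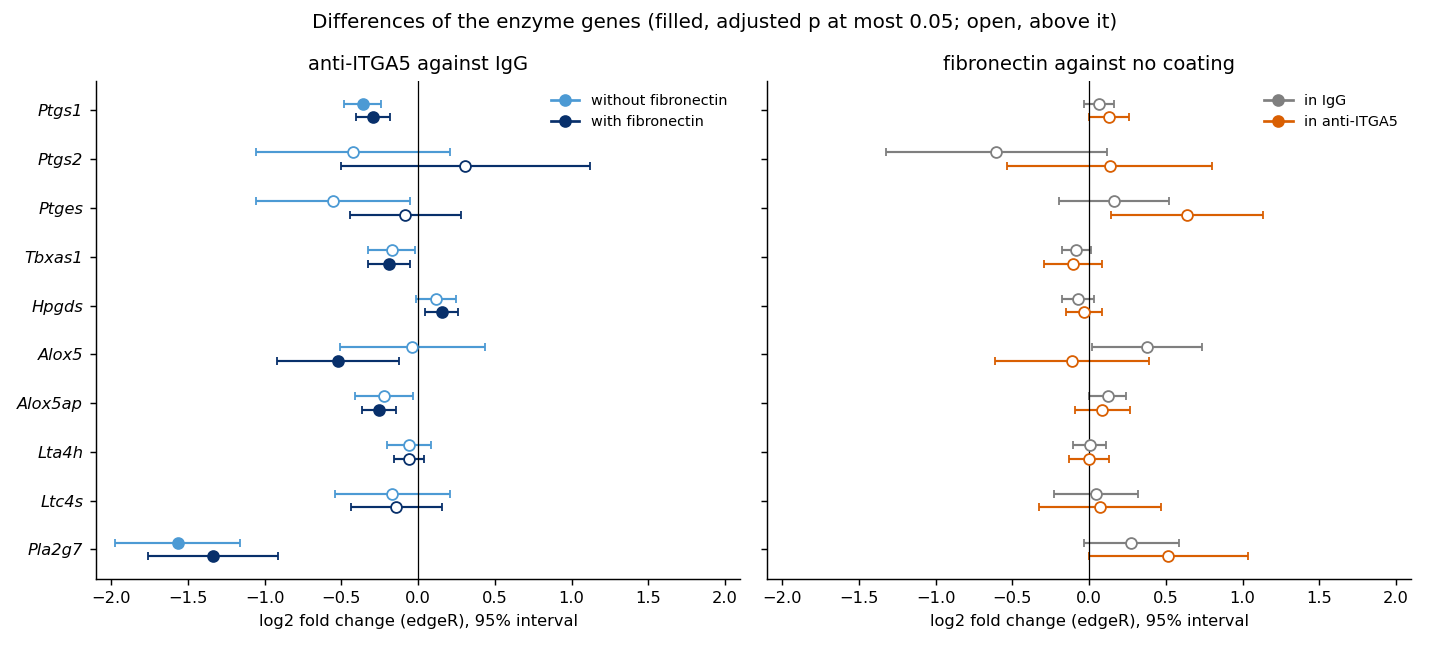
Log2 fold change of each gene with its 95% interval (edgeR) for anti-ITGA5 against IgG (left) and for fibronectin against no coating (right). Filled points passed an adjusted p of 0.05, and Pla2g7 lies farthest from 0 in the antibody comparisons, at -1.57 and -1.34, while no fibronectin comparison has a filled point.

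Ptgs1 (ENSMUSG00000047250) lies on the plus strand of chromosome 2 of GRCm38 from 36230426 to 36252272. It encodes cyclooxygenase-1, which makes prostaglandin H2. In IgG without fibronectin its 3 libraries read 20.1, 19.1 and 18.4 FPKM, and upon ITGA5 neutralization 15.2, 14.7 and 14.8. With fibronectin they read 20.01, 20.3 and 20.1 in IgG and 16.4, 17.3 and 15.6 in anti-ITGA5. All anti-ITGA5 libraries were thus below all IgG libraries on either surface (p = 0.10 for either surface by a 2-sided exact permutation test, which cannot go lower with 3 against 3). Ptgs1 fell by 22.2% without fibronectin, a log2 fold change of -0.36 (SE 0.0553, adjusted p = 0.00116), and by 18.5% with fibronectin, a log2 fold change of -0.30 (SE 0.0510, adjusted p = 0.00102). Both calls held under all 15 alternatives, with adjusted p-values of at most 0.0131 and 0.0167.

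Ptgs2 (ENSMUSG00000032487), on the plus strand of chromosome 1 from 150100031 to 150108227, encodes cyclooxygenase-2, the form that inflammatory stimuli induce. It was near the lower limit of measurement, with 10 to 39 counts per library. Without fibronectin it read 0.468, 0.481 and 0.336 FPKM in IgG and 0.348, 0.317 and 0.287 in anti-ITGA5. With fibronectin it read 0.119, 0.301 and 0.424 FPKM in IgG and 0.304, 0.305 and 0.449 in anti-ITGA5. The groups overlapped on both surfaces, and IgG with fibronectin replicate 1 was the lowest library of all. The log2 fold changes were -0.43 (95% interval -1.06 to 0.20, adjusted p = 0.331) and 0.31 (95% interval -0.50 to 1.12, adjusted p = 0.581), so no difference was detectable at this depth. Without that lowest library the second value was -0.05.

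The promoters of the pair are shown because one cyclooxygenase gene was called lower on both surfaces and the other on neither. RefSeq promoter windows on GRCm38.p6, from 250 bases before to 50 after the annotated start, were matched for 9 of the 10 members (not Alox5ap). The printed runs are the bases of the window before its first annotated exon base, 5′ to 3′ on the strand of the gene. They cover chr2:36230176-36230425 (plus strand) for Ptgs1 and chr1:150099781-150100030 (plus strand) for Ptgs2. Capitals mark matches on either strand to any of 6 motifs. GAGGAA is the core that the myeloid factor PU.1 binds. The AP-1 motif was searched as TGANTCA and the cyclic AMP response element (CRE) as TGACGTCA. The core of hypoxia response elements is ACGTG, and the letters for NF-kB were GGG and CC with 5 free bases between them. The last motif was the TATA box, searched as TATAAA.
Ptgs1: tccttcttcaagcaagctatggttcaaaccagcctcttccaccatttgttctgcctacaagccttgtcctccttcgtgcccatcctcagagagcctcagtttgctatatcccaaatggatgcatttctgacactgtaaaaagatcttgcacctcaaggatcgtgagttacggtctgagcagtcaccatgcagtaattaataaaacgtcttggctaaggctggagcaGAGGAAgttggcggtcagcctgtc
Ptgs2: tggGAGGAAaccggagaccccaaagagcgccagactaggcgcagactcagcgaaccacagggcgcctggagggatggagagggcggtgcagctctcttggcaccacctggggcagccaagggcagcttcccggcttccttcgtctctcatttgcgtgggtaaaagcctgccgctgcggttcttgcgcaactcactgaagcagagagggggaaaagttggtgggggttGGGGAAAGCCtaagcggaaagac
The GAGGAA of Ptgs1 begins at -24 from its start, and that of Ptgs2 at -247. Both windows also hold the NF-kB letters, at -23 for Ptgs2 and, past the printed run, at 28 for Ptgs1. Ptgs2 has ACGTG past its start at 18, overlapping the same core on the other strand at 17. Over whole windows, GAGGAA was found in 8 of the 9 members (all but Pla2g7) and in 28.3% of 32851 promoters of the same length. The NF-kB letters were found in 5 of 9 members against 50.8% of promoters, TATAAA in 1 against 13.6%, AP-1 in 1 against 7.81%, ACGTG in 1 against 19.6% and CRE in none against 1.79%. The E-box letters CANNTG, which are not capitalised, were found in 7 of 9 members against 72.3%. These matches describe the letters only.

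Of the terminal prostanoid synthases, upon ITGA5 neutralization the thromboxane gene was called lower and the prostaglandin D gene higher with fibronectin. Without it their log2 fold changes had the same signs but were not called. Tbxas1 (ENSMUSG00000029925) encodes thromboxane A synthase and lies on the plus strand of chromosome 6 from 38875404 to 39084585. Hpgds (ENSMUSG00000029919), on the minus strand of the same chromosome from 65117293 to 65144908, encodes the haematopoietic prostaglandin D synthase, a glutathione transferase. Ptges (ENSMUSG00000050737), on the minus strand of chromosome 2 from 30889471 to 30929863, encodes the membrane-bound prostaglandin E synthase that acts with cyclooxygenase-2.

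Tbxas1 read 29.5, 27.1 and 30.3 FPKM in IgG and 25.7, 23.2 and 27.9 in anti-ITGA5 without fibronectin. On fibronectin it read 28.6, 26.3 and 27.5 FPKM in IgG and 24.1, 21.7 and 26.5 in anti-ITGA5. The groups overlapped on both surfaces, and replicate 2 was the lowest library in each of the 4 groups. The log2 fold change was -0.17 without fibronectin (SE 0.0688, adjusted p = 0.103). It was called in 1 of 15 alternatives, edgeR with the replicate number as a block (adjusted p = 0.0332). Tbxas1 fell by 12.5% with fibronectin (log2 fold change -0.19, SE 0.0628, adjusted p = 0.0381). That call was lost in 9 of 15 alternatives. Among these, it was lost without IgG with fibronectin replicate 1 (adjusted p = 0.147) or 3 (0.0894) and without anti-ITGA5 with fibronectin replicate 1 (0.108) or 2 (0.135). With 1 library left out, the log2 fold change with fibronectin ranged from -0.26 to -0.12. Tbxas1 overlaps Hipk2, a kinase gene on the other strand with 1065 to 1437 counts, and the library kit named does not mark strand, so reads where the 2 genes overlap cannot be told apart.

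Hpgds read 38.6, 41.1 and 35.9 FPKM in IgG and 42.1, 41.8 and 40.7 in anti-ITGA5 without fibronectin. On fibronectin it read 37.3, 38.6 and 34.5 FPKM in IgG and 42.6, 41.3 and 39.1 in anti-ITGA5. The groups overlapped without fibronectin, by 1 IgG library above the lowest anti-ITGA5 library, and did not overlap with it. The log2 fold change was 0.11 without fibronectin (SE 0.0588, adjusted p = 0.206), and Hpgds rose by 11.2% with fibronectin (log2 fold change 0.15, SE 0.0487, adjusted p = 0.0337). That call was lost in 8 of 15 alternatives. Among these, it was lost without IgG with fibronectin replicate 1 (adjusted p = 0.0855) or 3 (0.171) and without anti-ITGA5 with fibronectin replicate 1 (0.141) or 2 (0.0769). Ptges read 0.780, 0.920 and 1.03 FPKM in IgG and 0.696, 0.628 and 0.533 in anti-ITGA5 without fibronectin. There the groups did not overlap, but the log2 fold change of -0.55 (SE 0.226, adjusted p = 0.111) did not pass the test. It passed with all 12 libraries in one fit (adjusted p = 0.041). With fibronectin Ptges read 1.12, 0.958 and 1.00 FPKM in IgG and 0.826, 1.01 and 1.08 in anti-ITGA5, which overlapped, and the log2 fold change was -0.08 (95% interval -0.45 to 0.28).

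The promoter of Tbxas1 is shown for its run of motif letters close to the start. The printed run is at chr6:38918736-38918979 (plus strand), and the RefSeq start lies 43582 bases inside the gene as the counted annotation draws it.
Tbxas1: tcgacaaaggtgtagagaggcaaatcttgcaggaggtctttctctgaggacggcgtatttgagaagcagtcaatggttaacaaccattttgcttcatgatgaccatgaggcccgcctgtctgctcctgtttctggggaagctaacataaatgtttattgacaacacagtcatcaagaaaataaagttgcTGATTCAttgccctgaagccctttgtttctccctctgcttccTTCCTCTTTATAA
TGATTCA lies at -61, GAGGAA on the other strand at -19, and the TATA letters follow directly on both strands, at -13 and -11, the last with its final base inside the exon.

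The ratio of Hpgds to Tbxas1, 2 synthases that use the same substrate, was computed after their values were seen. In IgG it was 1.31, 1.51 and 1.18 without and 1.30, 1.47 and 1.26 with fibronectin. In anti-ITGA5 it was 1.64, 1.80 and 1.46 without and 1.77, 1.91 and 1.48 with fibronectin. The mean ratio was thus 1.22 times that of IgG without fibronectin, where the groups overlapped (2-sided exact permutation test, p = 0.20), and 1.28 times with fibronectin, where they did not (p = 0.10). Replicate 2 had the highest and replicate 3 the lowest ratio in each of the 4 groups. The size of the ratio depends on the gene lengths, 6425 bases for Hpgds and 9094 for Tbxas1. As a share of the summed FPKM of the 10 genes, Hpgds stood at 15.0% ± 1.70 in IgG and 18.8% ± 1.93 in anti-ITGA5 without fibronectin, and at 13.5% ± 1.24 and 17.6% ± 1.15 with fibronectin (SD, n = 3 each).

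**Figure D3:**
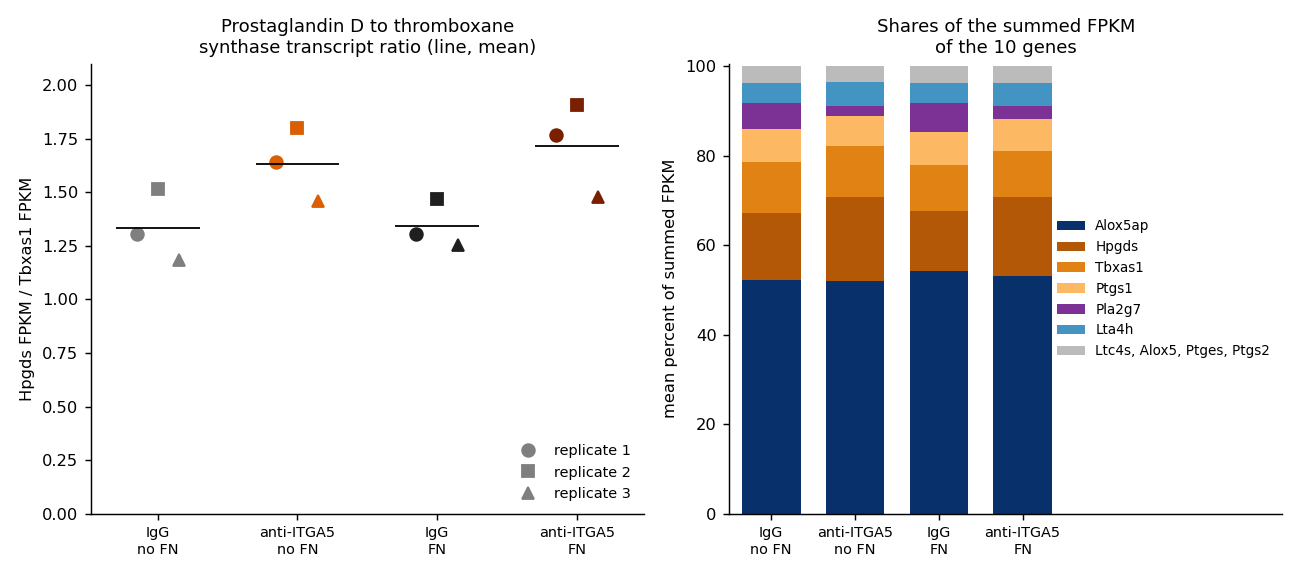
Left, ratio of Hpgds to Tbxas1 FPKM in each library (symbols, replicates; lines, means), which is 1.18 to 1.51 in the IgG libraries and 1.46 to 1.91 in the anti-ITGA5 libraries. Right, mean percent of the summed FPKM of the 10 genes in each group (n = 3), where Alox5ap holds 51.9% to 54.2% and the Pla2g7 band narrows from 5.73% to 2.19% without and from 6.63% to 3.08% with fibronectin.

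In the leukotriene branch, the first enzyme and its helper were called lower with fibronectin, and the later enzymes were called in neither antibody comparison. Alox5ap (ENSMUSG00000060063), on the plus strand of chromosome 5 from 149264767 to 149288153, encodes the 5-lipoxygenase activating protein, which presents arachidonate to the enzyme. It read 135, 124 and 146 FPKM in IgG and 121, 99.3 and 127 in anti-ITGA5 without fibronectin. With fibronectin it read 155, 138 and 150 FPKM in IgG and 126, 117 and 128 in anti-ITGA5. The groups overlapped without fibronectin and not with it, and replicate 2 was the lowest library in each of the 4 groups. Alox5ap fell by 16.2% with fibronectin (log2 fold change -0.25, SE 0.0518, adjusted p = 0.00296). Of 15 alternatives, this call was lost with unfiltered limma on FPKM (adjusted p = 0.0564) and held in the others. Without fibronectin the log2 fold change was -0.22 (SE 0.0857, adjusted p = 0.0956). It was called in 3 of 15 alternatives, which were DESeq2 (adjusted p = 0.0432), edgeR without a filter on low counts (0.022) and edgeR with the replicate number as a block (0.0118). With 1 library left out, the value without fibronectin ranged from -0.29 to -0.13.

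Alox5 (ENSMUSG00000025701), on the minus strand of chromosome 6 from 116410077 to 116461178, encodes 5-lipoxygenase. It read 0.888, 1.17 and 1.25 FPKM in IgG and 0.833, 1.29 and 1.10 in anti-ITGA5 without fibronectin, and these groups overlapped widely. On fibronectin it read 1.38, 1.71 and 1.21 FPKM in IgG and 0.803, 1.19 and 1.02 in anti-ITGA5, where the highest anti-ITGA5 library lay just under the lowest IgG library. Alox5 fell by 30.4% with fibronectin (log2 fold change -0.52, SE 0.182, adjusted p = 0.0495), and its log2 fold change without fibronectin was -0.04 (SE 0.213, adjusted p = 0.924). The call with fibronectin stood at the threshold and was lost in 10 of 15 alternatives, DESeq2 (adjusted p = 0.0645) and limma on log2(FPKM + 1) (log2 fold change -0.28, adjusted p = 0.127) among them. Among left-out libraries, it was lost without IgG with fibronectin replicate 1 (0.0956) or 2 (0.201) and without anti-ITGA5 with fibronectin replicate 1 (0.193) or 3 (0.0538).

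The promoter of Alox5 is shown as that of the enzyme that opens the branch, at chr6:116461179-116461428 (minus strand).
Alox5: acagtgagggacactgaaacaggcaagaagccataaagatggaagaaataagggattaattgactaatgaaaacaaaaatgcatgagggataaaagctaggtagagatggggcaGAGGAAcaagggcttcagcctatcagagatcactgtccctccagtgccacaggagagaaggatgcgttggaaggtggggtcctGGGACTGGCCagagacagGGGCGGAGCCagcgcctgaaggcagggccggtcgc
GAGGAA begins at -136, and the NF-kB letters begin at -53 and -35 and, past the printed run, at 2.

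Lta4h (ENSMUSG00000015889), the leukotriene A4 hydrolase gene on the plus strand of chromosome 10 from 93453411 to 93484875, was the steadiest member, at 10.7 to 12.6 FPKM over the 12 libraries. Its log2 fold changes upon ITGA5 neutralization were -0.06 without (95% interval -0.20 to 0.08) and -0.06 with fibronectin (95% interval -0.16 to 0.04). With fibronectin the groups nevertheless did not overlap, at 12.0 to 12.3 FPKM in IgG and 11.5 to 11.8 in anti-ITGA5. Ltc4s (ENSMUSG00000020377), the leukotriene C4 synthase gene on the minus strand of chromosome 11 from 50236461 to 50238616, was measured from 63 to 159 counts. It read 7.25, 7.19 and 6.81 FPKM in IgG and 6.46, 4.51 and 7.64 in anti-ITGA5 without fibronectin, where replicate 2 of anti-ITGA5 was the lowest of all 12. With fibronectin it read 7.23, 6.39 and 8.46 FPKM in IgG and 6.96, 6.04 and 6.98 in anti-ITGA5. The groups overlapped on both surfaces, and the log2 fold changes were -0.17 (95% interval -0.54 to 0.21) and -0.14 (95% interval -0.44 to 0.15). With 1 library left out they ranged from -0.35 to -0.0024, the latter without that lowest library, and from -0.24 to -0.0368, the latter without IgG with fibronectin replicate 3.

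Pla2g7 (ENSMUSG00000023913) showed the largest change of the members. It lies on the plus strand of chromosome 17 from 43568098 to 43612201 and encodes the platelet-activating factor acetylhydrolase of plasma, also known as lipoprotein-associated phospholipase A2, which macrophages secrete. It read 12.3, 13.8 and 18.5 FPKM in IgG and 4.73, 3.67 and 6.38 in anti-ITGA5 without fibronectin. With fibronectin it read 16.2, 14.8 and 23.4 FPKM in IgG and 5.71, 6.05 and 9.89 in anti-ITGA5. All anti-ITGA5 libraries of either surface were below all 6 IgG libraries, and replicate 3 was the highest library in each of the 4 groups. Pla2g7 fell by 66.3% without fibronectin (log2 fold change -1.57, SE 0.183, adjusted p = 2.2e-04) and fell by 60.4% with fibronectin (log2 fold change -1.34, SE 0.196, adjusted p = 3.2e-04). These were the 23rd lowest of 12924 and the 58th lowest of 12916 log2 fold changes. Both calls held under all 15 alternatives, with adjusted p-values of at most 0.0253 and 0.0426. Its counts ranged from 147 to 1259 per library.

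The promoter of Pla2g7 is shown as that of the member that moved most, at chr17:43568201-43568268 (plus strand), the bases of the window before its first annotated exon base, which lie inside the gene as the counted annotation draws it.
Pla2g7: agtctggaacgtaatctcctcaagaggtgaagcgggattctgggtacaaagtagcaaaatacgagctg
No match to the 6 capitalised motifs was found in the 300 bases of its window, which does hold E-box letters.

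In IgG the order of levels put Pla2g7 above Lta4h and Ltc4s, and in anti-ITGA5 without fibronectin it came below both, at 4.93 ± 1.36 FPKM (SD, n = 3) against 11.5 ± 0.718 and 6.21 ± 1.58. There its libraries overlapped those of Ltc4s and not those of Lta4h. In anti-ITGA5 with fibronectin its mean, 7.22 ± 2.32 FPKM, was below that of Lta4h (11.6 ± 0.180) and above that of Ltc4s (6.66 ± 0.537), and its libraries again overlapped those of Ltc4s and not those of Lta4h.

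The second question was what the coating did on its own. For fibronectin against no coating, none of the 10 members was called in IgG by edgeR's quasi-likelihood test. Of 12925 genes, 0.124% were called lower and 0.325% higher. In anti-ITGA5 none was called, as for 0% of 12863 genes lower and 0% higher. At an unadjusted p under 0.05 there were 1266 and 461 genes, and DESeq2 called 42 genes lower and 86 higher in IgG, and 1 lower and 4 higher in anti-ITGA5. Among the members, Alox5 had an unadjusted p of 0.0389 and Alox5ap of 0.0461 in IgG, with log2 fold changes of 0.38 and 0.12. With 1 library left out, that of Alox5 ranged from 0.23 to 0.48 and that of Alox5ap from 0.062 to 0.18. Ptges had an unadjusted p of 0.0172 in anti-ITGA5, with a log2 fold change of 0.64 (SE 0.222, adjusted p = 0.979), and its 3 coated libraries lay above its 3 uncoated ones. Pla2g7 was higher by 0.27 (SE 0.147, adjusted p = 0.571) in IgG and by 0.52 (SE 0.232, adjusted p = 0.979) in anti-ITGA5, but its libraries overlapped in both. With 1 library left out these values ranged from 0.05, without IgG with fibronectin replicate 3, to 0.46 and from 0.22, without anti-ITGA5 with fibronectin replicate 3, to 0.75. At each replicate number the coated Pla2g7 library read above the uncoated one with either antibody, but the labels do not pair the numbers. In IgG, 2 of 15 alternatives called Pla2g7 higher on fibronectin, 1 of them edgeR with the replicate number as a block (adjusted p = 0.00182). That block was also the 1 alternative that called Alox5ap (adjusted p = 0.0436). Without a filter on low counts, edgeR did call Pla2g7 higher on fibronectin in IgG (adjusted p = 0.00244) and in anti-ITGA5 (adjusted p = 2.0e-04).

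Whether the antibody effect differed between surfaces was tested as the interaction over all 12 libraries. No member was called, against 0.0223% of 13455 genes lower and 0% higher (386 genes at an unadjusted p under 0.05, and 3 lower and 1 higher by DESeq2). Ptgs2, Ptges and Alox5 had the widest differences of log2 fold change, with fibronectin less without, at 0.74 (95% interval -0.33 to 1.81), 0.47 (-0.07 to 1.01) and -0.48 (-1.10 to 0.13). That of Pla2g7 was 0.23 (95% interval -0.46 to 0.92) and that of Ptgs1 0.06 (-0.09 to 0.21). With 1 library left out, that of Ptgs2 ranged from 0.38 to 1.14. The Alox5, Alox5ap, Tbxas1 and Hpgds calls that were made with fibronectin alone are therefore not shown to be particular to that surface (adjusted p = 1.00 for each interaction).

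Around the members, 87 further genes of the pathway were listed in 8 groups, and those with enough counts were tested. Of 58 tested without fibronectin 8 were lower and 5 higher upon ITGA5 neutralization, and of 57 tested with fibronectin 12 were lower and 11 higher. Their median log2 fold changes were -0.07 and -0.04. Of all genes, 9.79% were lower and 11% higher without fibronectin, and 13.2% lower and 14.4% higher with it. Single calls were followed through the alternatives for the members only, so calls of these genes and of the markers were not checked there. The member calls nearest the threshold (Hpgds, Tbxas1 and Alox5 with fibronectin, edgeR adjusted p of 0.0337 to 0.0495) were lost in 8 to 10 of 15.

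Upstream come genes that can release arachidonate or put fatty acids such as arachidonate back into phospholipids. Of the release genes 2 of 11 rose without fibronectin, against 11% of all genes, and 3 of 10 with it, against 14.4%, and none fell, against 9.79% and 13.2%. Pla2g5, a secreted phospholipase A2, rose from 0.205 ± 0.0323 to 0.490 ± 0.0888 FPKM without and from 0.259 ± 0.0308 to 0.651 ± 0.160 FPKM on fibronectin (SD, n = 3 each), with log2 fold changes of 1.25 (adjusted p = 0.0245) and 1.31 (adjusted p = 0.00558), from 9 to 43 counts per library. Daglb, a diacylglycerol lipase, rose on both surfaces (log2 fold changes 0.29 and 0.24), and Abhd12, a lysophospholipid lipase, with fibronectin (0.12). Of the 8 re-esterification genes 1 rose without and 3 with fibronectin, and none fell, beside the same shares of all genes. Without and with fibronectin, the median log2 fold changes were 0.08 and 0.02 in the release list and 0.06 and -0.02 in the re-esterification list. Mboat1, a lysophospholipid acyltransferase, rose from 2.16 ± 0.300 to 3.72 ± 0.0573 FPKM and from 2.13 ± 0.243 to 3.50 ± 0.260 FPKM, with log2 fold changes of 0.79 (adjusted p = 7.9e-04) and 0.71 (adjusted p = 5.7e-04). Mboat7, which places arachidonate on phosphatidylinositol, and Acsl5, a fatty acyl-CoA ligase, rose with fibronectin (0.22 and 0.15).

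Among other prostanoid synthases 1 of 5 tested genes fell without fibronectin, and 1 fell and 2 rose with it. Of 5 export and breakdown genes 1 fell and 1 rose without, and 2 fell and 1 rose with fibronectin, beside the shares of all genes given above. Cbr1, a carbonyl reductase that can act on prostaglandin E2, fell on both surfaces (log2 fold changes -0.35, adjusted p = 0.00841, and -0.33, adjusted p = 0.00364). Ptges3, the cytosolic prostaglandin E synthase and HSP90 co-chaperone, rose with fibronectin (0.20, adjusted p = 0.00698), as did Fam213b, a prostaglandin F synthase (0.38, adjusted p = 0.00524). Of the export and breakdown genes, Ptgr1, a prostaglandin reductase that also inactivates leukotriene B4, fell on both surfaces. Its level went from 36.9 ± 0.232 to 30.4 ± 1.51 FPKM and from 42.9 ± 2.51 to 32.3 ± 2.55 FPKM (SD, n = 3 each), with log2 fold changes of -0.27 and -0.41. Abcc4, a transporter that exports prostaglandins, rose on both (0.24 and 0.33), and Ptgr2 fell with fibronectin (-0.21).

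In the leukotriene list 1 of 8 tested genes fell without fibronectin, and 4 fell and 1 rose with it, beside 9.79% of all genes lower without and 13.2% lower and 14.4% higher with fibronectin. Mgst1, a microsomal glutathione transferase, fell from 25.0 ± 0.878 to 16.3 ± 2.75 FPKM and from 25.8 ± 0.857 to 17.5 ± 0.729 FPKM, with log2 fold changes of -0.60 (adjusted p = 0.00169) and -0.56 (adjusted p = 2.8e-05). Mgst2, which can make leukotriene C4 as Ltc4s does, was lower with fibronectin (-0.80, adjusted p = 0.00448) and stood at -0.49 (adjusted p = 0.069) without. Dpep3, of the dipeptidase family whose members cleave leukotriene D4, fell with fibronectin at 10 to 40 counts per library (-0.75, adjusted p = 0.0378). In the list of other lipoxygenases and epoxygenases 1 of 4 fell without and 2 of 4 with fibronectin, beside 9.79% and 13.2% of all genes. Cyp4f13, of the cytochrome family that hydroxylates leukotriene B4, fell on both surfaces (-0.50 and -0.58), and Cyp2j6, of the epoxygenase family, with fibronectin (-0.61).

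Beside Pla2g7, the platelet-activating factor list had 9 genes tested, of which 2 fell without fibronectin (9.79% of all genes did), while 1 fell and 1 rose with it (13.2% and 14.4% of all genes). Lpcat1, an acyltransferase that can make the mediator, fell on both surfaces, from 12.0 ± 0.611 to 10.0 ± 0.425 FPKM and from 12.8 ± 0.481 to 10.96 ± 0.608 FPKM (SD, n = 3 each), with log2 fold changes of -0.25 and -0.22. Chpt1, a choline phosphotransferase, fell without fibronectin (-0.24, adjusted p = 0.047), and Lpcat4 rose with it (0.28, adjusted p = 0.034). Of the 8 receptors tested 2 fell and 1 rose without fibronectin, where 9.79% and 11% of all genes did, and 2 fell with it, where 13.2% did. Ptger2, a prostaglandin E2 receptor that raises cyclic AMP, fell from 2.17 ± 0.289 to 1.56 ± 0.0868 FPKM and from 2.56 ± 0.348 to 1.42 ± 0.260 FPKM, with log2 fold changes of -0.47 (adjusted p = 0.0207) and -0.86 (adjusted p = 7.9e-04). Ptger1 fell with fibronectin (-1.09, adjusted p = 0.00333, 21 to 65 counts), and Ptger4, which signals as Ptger2 does, rose without it (0.44, adjusted p = 0.0488). Of the 16 receptors listed 8 had too few counts to be tested.

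**Figure D4:**
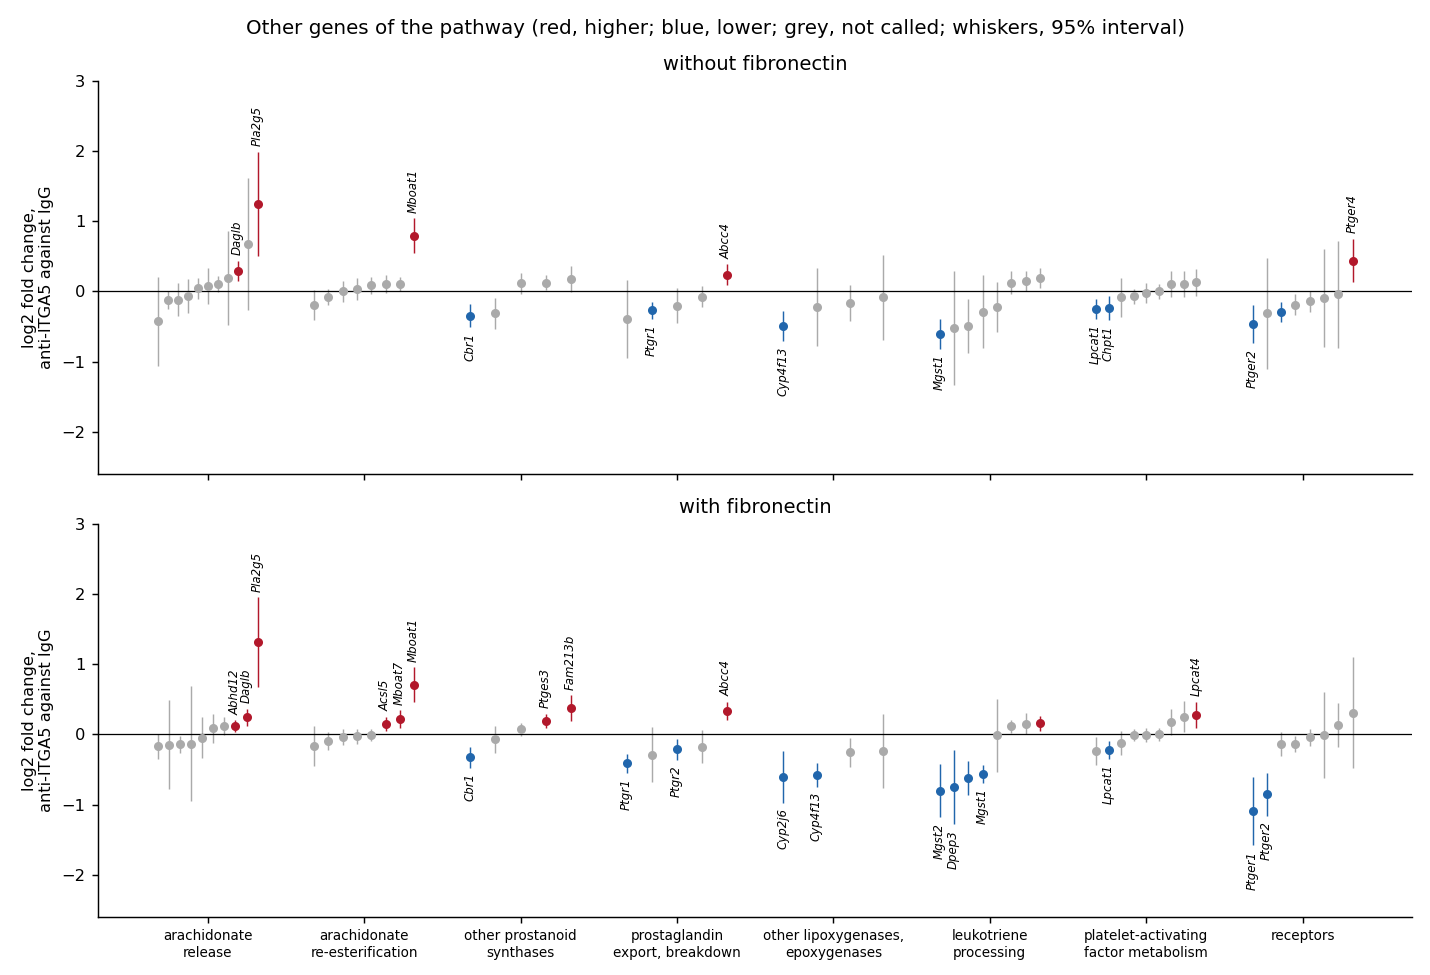
Log2 fold change (vertical axes, edgeR, with 95% interval) of the pathway genes tested, by list, for anti-ITGA5 against IgG without (upper, 58 genes) and with fibronectin (lower, 57 genes). Red genes were called higher and blue genes lower, labelled where the naming rule named them. The release and re-esterification lists hold red and grey points only, beside 9.79% (upper) and 13.2% (lower) of all genes called lower.

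Over the 12 libraries, the genes whose log2 CPM followed Ptgs1 most closely among 8659 genes of at least 10 CPM were Vamp4 (Pearson r 0.98), Ube2l3 and Sh3gl1 (both 0.97), in order a vesicle SNARE, a ubiquitin-conjugating enzyme and an endophilin. For Pla2g7 they were Rnf128, a ubiquitin ligase, Tmem268 and A530064D06Rik (r of 0.98 each). The 12 points include both antibodies, and all 6 genes were themselves lower upon ITGA5 neutralization on both surfaces, with log2 fold changes from -0.19 for Sh3gl1 to -0.78 for A530064D06Rik. None of the 6 fell as far as Pla2g7.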

How the data were processed

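RNA-seq was analysed in 12 libraries of bone marrow macrophages, 3 in each of 4 groups taken from the labels. The libraries were made from oligo(dT)-enriched RNA with a kit that does not mark strand. Per the labels and the study's methods, reads were aligned to GRCm38 (mm10) with TopHat2 2.0.9 and counted per Ensembl gene with HTSeq 0.6.1. The authors deposited whole read counts per gene, without normalization, and FPKM per gene, in which counts were divided by gene length and library total. The strand setting of the counting is not given in the sources used here.

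Differences were tested on the counts with edgeR 4.0.16 in R 4.3.3 (filterByExpr with a minimum count of 10 and minimum total of 15, TMM, quasi-likelihood test, Benjamini-Hochberg adjustment over all genes tested), on the 6 libraries of each comparison, or all 12 for the interaction. Each SE was derived from the F statistic. FPKM were given per library, as mean and SD, with 2-sided exact permutation tests (SciPy 1.17.1). CPM of markers used total counts. The scripts were tested on simulated counts. Alternatives were DESeq2 1.42.0 (the study's own tool), edgeR with the size factors of DESeq2, with total counts or with no filter, a fit of all 12 libraries together, a block for the replicate number, limma 3.58.1 on log FPKM (pseudocount 1 or 0.1, genes of at least 0.5 FPKM, or pseudocount 1 with no filter) and each library left out.

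The members and lists were chosen with earlier results of these data known. The genes named were the members, up to 3 genes per list with the largest mean log2 fold change over both antibody comparisons among those called in at least 1, and the 3 genes most correlated with each member called in both. Promoters came from RefSeq (GRCm38.p6) and exons from GENCODE M21.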

Additional observations from a re-analysis of the deposited data

How the results depend on the processing

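Across the alternatives, 707 values kept their direction and side of the threshold, 28 lost and 9 gained a call, and 46 changed sign. Members lower with fibronectin, 5 as reported, were 3 with total counts, 3 with limma at a pseudocount of 1 or of 0.1, 2 with limma without a filter, 3 with all 12 libraries in one fit and 3 to 4 with 1 library left out. The 1 member higher with fibronectin was 0 in each limma fit and with all 12 libraries, and 0 to 1 with 1 library left out. No member was called higher on fibronectin as reported, and 1 was in IgG and 1 in anti-ITGA5 without a filter on low counts. Replicate numbers are shared by the groups, but nothing says that they mark a common animal or day. Deviations from the group means correlated at -0.0202 to 0.149 for the same number and at -0.142 to 0.111 for different ones, and every library correlated best with its own number in 3 of 4 comparisons (6 of 6 libraries) and 2 of 6 did in the other. With the replicate number as a block, 4 members were lower without fibronectin (2 as reported), with Alox5ap (adjusted p = 0.0118) and Tbxas1 (0.0332) added, and 2 were higher on fibronectin in IgG (0 as reported), Pla2g7 (0.00182) and Alox5ap (0.0436), and all-gene calls were 1421 lower and 1547 higher without fibronectin, 2217 and 2321 with fibronectin, and 133 and 283 for fibronectin in IgG. Other all-gene counts that moved by over 1.5 times were those of limma without a filter (536 lower and 684 higher without fibronectin, 846 and 1025 with it), and for fibronectin in IgG those of DESeq2 (42 and 86), edgeR without a filter (66 and 175), all 12 libraries in one fit (1 and 10) and limma (2 and 5, 0 and 5, 9 and 8). Without a filter, edgeR also called 214 and 113 genes for fibronectin in anti-ITGA5 and 32 and 33 for the interaction. In these last 2 comparisons, the other alternatives that left out no library called at most 4 genes in either direction. Values that changed sign were all uncalled. With total counts they were Alox5 without fibronectin (0.0041), and Lta4h for fibronectin in IgG (-0.0166) and in anti-ITGA5 (-0.0152). The Lta4h interaction became 0.0028 with DESeq2, 0.0036 with its size factors, 0.0012 with total counts, 0.0016 without a filter, 0.0078 with limma on log2(FPKM + 1), filtered or not, and 0.0085 on log2(FPKM + 0.1). With 1 library left out, all-gene calls ranged from 627 to 1842 lower and 846 to 1992 higher without fibronectin, 1113 to 1907 and 1323 to 2065 with it, and 3 to 24 and 6 to 77 for fibronectin in IgG. In the same fits, the log2 fold change upon neutralization ranged from -0.18 to 0.12 for Alox5 without fibronectin, and with fibronectin from -0.0453 to 0.70 for Ptgs2 and -0.16 to 0.0267 for Ptges. For fibronectin in IgG the ranges were -0.0448 to 0.0387 for Lta4h and -0.0664 to 0.15 for Ltc4s. In anti-ITGA5 they were -0.27 to 0.0363 for Alox5, -0.0041 to 0.15 for Alox5ap, -0.0399 to 0.0247 for Lta4h, -0.0932 to 0.25 for Ltc4s and -0.0772 to 0.24 for Ptgs2. For the interaction they were -0.12 to 0.0367 for Alox5ap, -0.0120 to 0.0854 for Hpgds, -0.0416 to 0.0445 for Lta4h, -0.14 to 0.20 for Ltc4s, -0.0536 to 0.47 for Pla2g7 and -0.0856 to 0.0565 for Tbxas1. The cause of these shifts was not tested. The members with the fewest counts per library were Ptgs2 (10 to 39), Ptges (34 to 82), Alox5 (60 to 153) and Ltc4s (63 to 159), which bounds the counting precision of their values.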
